A study of Mus musculus with 9 samples.

Results

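Cadherins and protocadherins are calcium-dependent adhesion proteins of the cell surface. The genes described here are the 32 whose platform symbol is Cdh or Pcdh followed by a number alone, out of 18193 genes on the array, and where a gene had several probe sets, the brightest on average over the 9 arrays stands for it. They comprise 21 cadherin and 11 protocadherin genes with 70 probe sets in all. Dorsal skin cells of 3 pups (mice 2, 4 and 5, postnatal day 2) were sorted by flow cytometry into 3 gates, and the RNA of each mouse and gate was measured on 1 array. Gate R3 took the GFP+CD133+ cells, given in the labels as dermal papilla cells of guard, awl and auchene hairs. Gate R2 held GFP-CD133+ cells, given as dermal papilla cells of zigzag hairs. Gate R1 held GFP-CD133- cells, taken as the rest of the dermis without papillae. Keratinocyte and leukocyte markers were also highest in R1, as given below. All 3 gates came from the same mice, and the labels used here give neither their strain nor the GFP allele, which is known, though not from these labels, to report Sox2. The dermal papilla is the mesenchymal cluster at the base of the hair follicle, and CD133 is the protein of Prom1.

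Classical cadherins bind the same cadherin on a neighbouring cell through their outer domains and hold on to actin through catenins inside the cell. Type I members (E-, N-, P-, R- and M-cadherin) and type II members (such as VE-cadherin and cadherin-11) differ in that outer contact. Delta protocadherins have another cytoplasmic tail without a beta-catenin site and are best known from the sorting of neurons. In skin, E- and P-cadherin are known from epithelium, VE-cadherin from vessels, and N-cadherin and cadherin-11 from mesenchyme.

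Values are log2 expression values as deposited, so a difference of 1 is a 2-fold change, and the array medians lay between 6.13 and 6.20. As a guide to background, 44 probe sets of olfactory receptors were used, whose 95th percentile lay between 5.14 and 5.46 on the 9 arrays. By the probe sets that stand for them, 16 of the 32 genes exceeded the guide of the same array on all 9 arrays, 11 on some, and 5 (Cdh7, Cdh8, Cdh9, Cdh17 and Cdh18) on none. The gate genes followed the sort, with mean Prom1 at 10.32 in R3, 11.85 in R2 and 7.43 in R1, and mean Sox2 at 10.66, 7.08 and 4.19 in the same order of gates. Of 21 dermal papilla markers, 19 were higher in R3 and 14 in R2 than in R1, where 7.9% and 6.89% of all genes were called higher. That list holds both gate genes, Prom1 and Sox2, whose part in these counts was set by the sort. Differences were called by limma at a Benjamini-Hochberg adjusted p under 0.05 over all 18193 genes.

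Each of the 3 comparisons called cadherin genes in both directions. Between R3 and R2, 4 of the 32 genes were higher in R3 (Cdh6, Cdh19, Cdh22 and Pcdh9) and 2 were lower (Cdh5 and Pcdh12), which is 18.8% of them, where 5.03% of all genes were called. Between R2 and R1, 5 were higher in R2 (Cdh2, Cdh5, Cdh13, Cdh26 and Pcdh17) and 6 were lower (Cdh1, Cdh3, Cdh4, Cdh6, Cdh7 and Pcdh10), or 34.4% against 13.1% of all genes. Between R3 and R1, 6 were higher in R3 (Cdh2, Cdh19, Cdh22, Pcdh9, Pcdh15 and Pcdh17) and 7 were lower (Cdh1, Cdh3, Cdh4, Cdh5, Cdh7, Pcdh10 and Pcdh12), or 40.6% against 18.7%. Cdh5 alone was called in all 3 comparisons, 12 genes were called in 2, 3 in 1 and 16 in none. All 30 calls had the same sign in the 3 mice, which a call from 3 arrays per gate makes likely in itself.

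The list did not move one way as a whole. Its median log2 change was 0.06 for R3 against R2 (all genes -0.01), -0.04 for R2 against R1 (all genes -0.02) and 0.06 for R3 against R1 (all genes -0.01). Between R3 and R2, every R3 array lay above every R2 array for 9 of the 32 genes (9.98% of all genes) and below for 5 (12.8%), together 14 (22.7%). The same held between R2 and R1 for 7 above and 9 below (15.4% of all genes each way), together 16 (30.8%). Between R3 and R1 it held for 9 above (15.5%) and 9 below (18.9%), together 18 (34.4%). By direction, 358 of all genes were called higher in R3 than in R2 (1.97%) and 557 lower (3.06%). In R2 against R1, 6.89% of all genes were called higher and 6.16% lower, and in R3 against R1, 7.9% higher and 10.8% lower. Counts that leaned on 1 array were those of higher genes in R2 against R1, which fell to 1 without R2 replicate 2 or R1 replicate 2 and to 3 without R3 replicate 2 or R1 replicate 5. The count of lower genes fell to 1 between R3 and R2 without R3 replicate 4 or R2 replicate 2, and to 4 between R3 and R1 without R3 replicate 5 or R1 replicate 2.

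**Figure D1:**
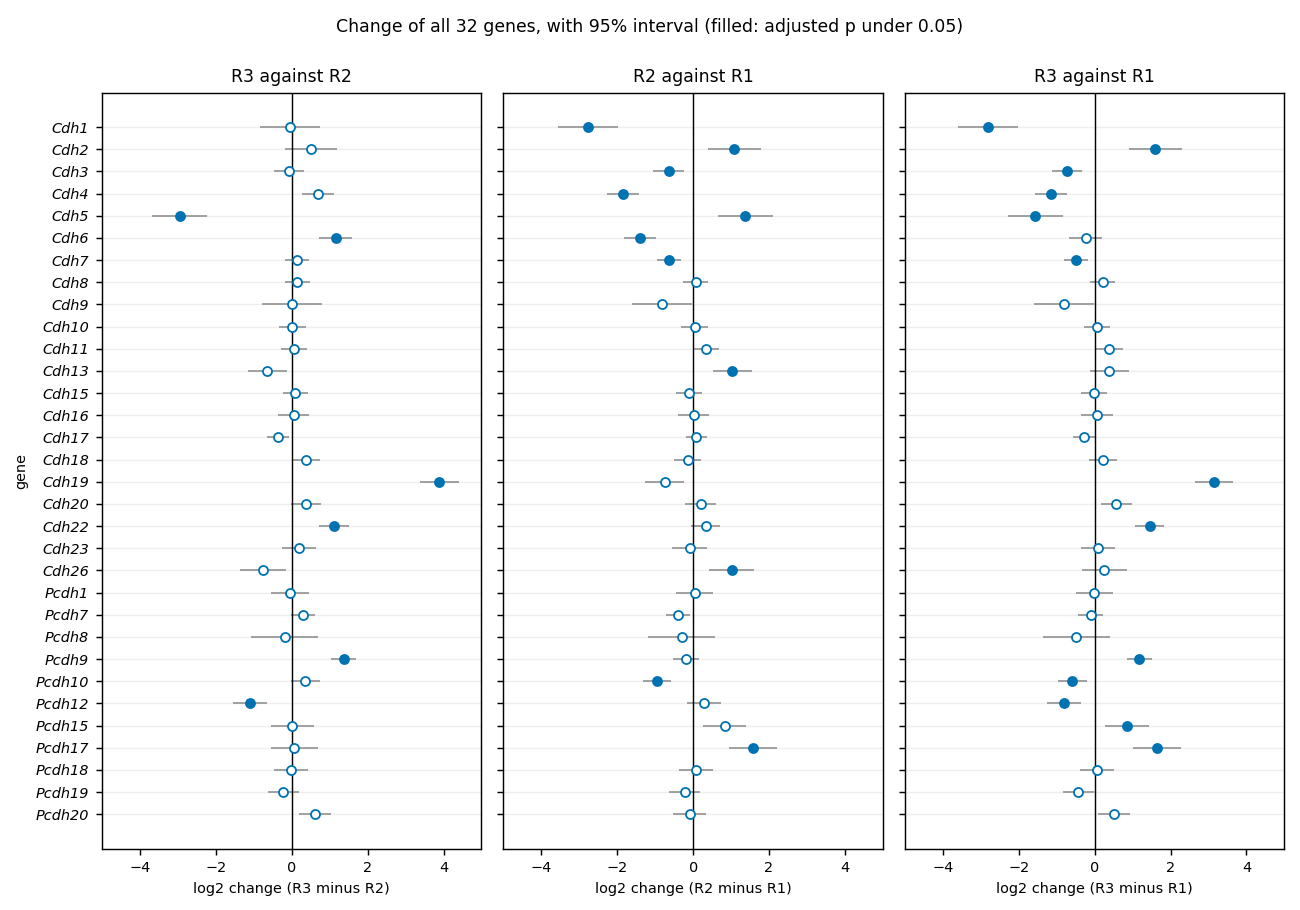
Log2 change of each of the 32 genes in the 3 comparisons (first gate minus second), with the 95% interval of the moderated estimate from 3 arrays per gate; filled points passed an adjusted p of 0.05. Cdh19, whose R2 and R1 values are under the background guide, stands furthest right where R3 is compared (3.89 and 3.15), Cdh5 furthest left in R3 against R2 (-2.94), and Cdh1 furthest left against R1 (-2.77 and -2.81).

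Among type I cadherins, the epithelial ones were lower and N-cadherin was higher in the papilla gates than in R1. Cdh1, the gene of E-cadherin, which seals epithelial cells together, had 6.78, 5.92 and 7.56 in R3, 6.59, 7.21 and 6.56 in R2, and 9.57, 9.49 and 9.62 in R1 (log2 values of mice 2, 4 and 5). The R1 arrays stood clear of both papilla gates, and the R3 arrays spread widest. Cdh1 was thus 6.99-fold lower in R3 than in R1 (log2 change -2.81, standard error 0.35, limma adjusted p = 0.000565) and 6.83-fold lower in R2 than in R1 (-2.77, standard error 0.35, adjusted p = 0.000854). Between R3 and R2 the change was -0.03, with a 95% interval of -0.83 to 0.76. Both changes against R1 were called under every alternative.

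Cdh3 encodes P-cadherin, known from basal keratinocytes and hair matrix, and lies directly beside Cdh1 on chromosome 8 in the RefSeq gene table (GRCm38.p6). It had 6.35, 6.10 and 5.93 in R3, 6.06, 6.39 and 6.14 in R2, and 7.17, 6.75 and 6.62 in R1. The R1 arrays were again above all others, by a smaller step: Cdh3 was 1.65-fold lower in R3 than in R1 (adjusted p = 0.0200) and 1.57-fold lower in R2 than in R1 (adjusted p = 0.0418). The first call was lost without R3 replicate 4, R3 replicate 5 or R1 replicate 2 (adjusted p from 0.0615 to 0.0662, and 0.00302 to 0.0662 over all alternatives). The second was lost without R3 replicate 4, R1 replicate 2, R1 replicate 4 or any R2 array (0.0564 to 0.127, and 0.00702 to 0.127 over all alternatives). A second Cdh3 probe set, 1441255_at, was lower by 1.15 in R3 and by 1.05 in R2 than in R1 (log2, adjusted p = 0.00302 and 0.00702 among all probe sets).

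Keratinocyte markers moved with these 2 genes. Of 19 measured markers, 18 were lower in R3 and 18 in R2 than in R1 (94.7% each, beside 18.7% and 13.1% of all genes called). None was called between R3 and R2, where 5.03% of all genes were called. Their mean level ranged from 6.58 to 7.32 in R3, from 6.82 to 7.12 in R2 and from 9.57 to 10.18 in R1, with 16, 15 to 17 and 19 of the 19 above the guide. In R3, Cdh1 had the same order of mice as the marker mean (7.25, 6.58 and 7.32 in mice 2, 4 and 5). In R2, mouse 4 had the lowest marker mean (6.82) and the highest Cdh1. Cdh3 was lowest in R3 in mouse 5, where the marker mean was highest (7.32). With 3 arrays per gate, no relation is read from these orders. Melanocyte markers (8 measured) were lower in R3 for 6 and in R2 for 5, each against R1 (75% and 62.5%). Leukocyte markers (15 measured) were so for 12 and 13 (80% and 86.7%). The part of these cells in the change of Cdh1 and Cdh3 was not tested. In bulk RNA of sorted cells, fewer cells of a type and less RNA per cell cannot be told apart.

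Cdh2, the gene of N-cadherin, the main type I cadherin of mesenchyme and neurons, had 8.14, 8.33 and 8.08 in R3, 7.89, 7.22 and 7.91 in R2, and 6.33, 6.09 and 7.33 in R1. Every R3 array exceeded every R2 and R1 array, while R2 and R1 overlapped through mouse 5 of R1. Cdh2 was 3.03-fold higher in R3 than in R1 (log2 change 1.60, standard error 0.31, adjusted p = 0.00582), under every alternative. It was 2.13-fold higher in R2 than in R1 (adjusted p = 0.0467), a call kept without R2 replicate 4 or R1 replicate 5 and lost without any other array (adjusted p from 0.0624 to 0.141, and 0.00443 to 0.141 over all alternatives). The R2 call was also lost with only the 6 arrays of the comparison and after quantile normalization again. Tested singly, neither Cdh2 probe set was called between R2 and R1 (adjusted p = 0.0548 and 0.0722). The change of 0.51 between R3 and R2 was not called (95% interval -0.18 to 1.20).

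Cdh4, the gene of R-cadherin, named for the retina, was lowest in R2 by the probe set that stands for it. It had 6.06, 6.37 and 5.93 in R3, 5.37, 5.20 and 5.72 in R2, and 7.13, 7.57 and 7.11 in R1. The 3 gates did not overlap, and 2 of the 3 R2 arrays did not exceed the guide. Cdh4 was 2.22-fold lower in R3 than in R1 (log2 change -1.15, standard error 0.19, adjusted p = 0.00269) and 3.59-fold lower in R2 than in R1 (-1.84, standard error 0.19, adjusted p = 0.000263), and a second probe set, 1449422_at, was called lower in both. The remaining one, 1449637_at, was dim and flat (means 4.00 in R3, 4.00 in R2 and 4.02 in R1). With the mean of the 3 probe sets the changes against R1 were -0.70 in R3 and -0.98 in R2, both still called (adjusted p = 0.00309 and 0.000601). The step from R2 to R3 (0.69, 95% interval 0.26 to 1.12) missed the threshold (adjusted p = 0.0768). On 1449422_at that step was 0.16 (adjusted p = 0.753), and the R3 and R2 arrays overlapped. Cdh15, M-cadherin of skeletal muscle, stayed between 6.70 and 7.24 on all 9 arrays, with changes of 0.10 for R3 against R2, -0.11 for R2 against R1 and -0.01 for R3 against R1, none called. Of 11 skeletal muscle markers, 1 was lower in R3 than in R2 (9.09%, beside 5.03% of all genes called). Lower than in R1 were 7 in R3 and 4 in R2 (63.6% and 36.4%, beside 18.7% and 13.1%).

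Type II cadherins gave the steepest differences between the papilla gates. Cdh19, known from neural crest cells and Schwann cell precursors, had 6.52, 7.10 and 7.57 in R3, 3.29, 3.18 and 3.05 in R2, and 3.94, 3.99 and 3.82 in R1. It stood above the guide in R3 alone. The log2 value was higher in R3 by 3.89 than in R2 (standard error 0.23, adjusted p = 1.53e-05) and by 3.15 than in R1 (standard error 0.23, adjusted p = 2.15e-05). Both sizes are set against signals under the guide, so no fold is given. R2 and R1 differed by -0.75, which was not called (adjusted p = 0.0614) and passed without R3 replicate 2 or R3 replicate 5 (0.0157 to 0.0208, and 0.0103 to 0.153 over all alternatives), and no order is read from 2 gates that both lay under the guide.

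Cdh22, a type II cadherin known from brain and pituitary, was also highest in R3. It had 7.60, 8.06 and 7.66 in R3, 6.91, 6.40 and 6.65 in R2, and 6.39, 6.19 and 6.38 in R1. The R3 arrays stood above all others, and R2 lay a little above R1 (change 0.33, not called). Cdh22 was 2.17-fold higher in R3 against R2 (1.12 on the log2 scale, standard error 0.17, adjusted p = 0.00515) and 2.73-fold higher than in R1 (1.45, standard error 0.17, adjusted p = 0.000414). Unlike Cdh19, it was above the guide on all 9 arrays.

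Schwann and glial markers were higher in R3 alongside these genes. Of 11 listed markers 9 were measured, of which 8 were higher in R3 than in R2, 6 higher in R3 than in R1, and 4 lower in R2 than in R1. These are 88.9%, 66.7% and 44.4% of the 9, beside 5.03%, 18.7% and 13.1% of all genes called. Mbp, the gene of myelin basic protein, averaged 11.95 in R3, 5.92 in R2 and 7.80 in R1, and Erbb3, the neuregulin receptor of Schwann cells, averaged 10.08, 7.08 and 9.55 in the same gates. The mean of the 9 markers ranged from 8.45 to 8.68 in R3, from 5.26 to 5.57 in R2 and from 5.93 to 6.54 in R1, with 9, 2 to 6 and 5 to 7 of them above the guide. The dermal papilla markers were highest in R3 too. Their list mean ranged from 10.27 to 10.50 in R3, from 9.69 to 9.86 in R2 and from 7.94 to 8.23 in R1. Of those 21 markers, 8 were higher and 3 lower in R3 than in R2 (52.4% called, beside 5.03% of all genes). The part of either list in the changes of Cdh19 and Cdh22 was not tested.

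Cdh6, known as K-cadherin from kidney and from neural tissue, set R2 apart from both other gates. It had 7.78, 7.25 and 7.35 in R3, 6.15, 6.21 and 6.55 in R2, and 7.42, 7.84 and 7.84 in R1. All R2 arrays lay below all others, while R3 and R1 overlapped. Cdh6 was 2.23-fold higher in R3 against R2 (1.16 on the log2 scale, standard error 0.19, adjusted p = 0.00708) and 2.63-fold lower in R2 than in R1 (-1.40, standard error 0.19, adjusted p = 0.00122), both under every alternative. R3 and R1 differed by -0.24 (95% interval -0.67 to 0.19). Its second probe set, 1442257_at, was called in the same 2 comparisons, at 1.46 and -1.66.

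The upstream sequences of these 2 type II genes are shown because their R3 to R2 steps were nearly equal while their patterns against R1 differed. Each run is the 250 bases before the gene start in RefSeq's promoter table (GRCm38.p6), read 5′ to 3′ on the gene's strand, at chr2:165234738-165234987 (minus strand) for Cdh22 and chr15:13173676-13173925 (minus strand) for Cdh6. Capitals mark any match, on either strand, to the 4 motifs searched: the Sox-type sites ACAATG and ACAAAG, the E-box CAGGTG, and TATAAA.

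Cdh22: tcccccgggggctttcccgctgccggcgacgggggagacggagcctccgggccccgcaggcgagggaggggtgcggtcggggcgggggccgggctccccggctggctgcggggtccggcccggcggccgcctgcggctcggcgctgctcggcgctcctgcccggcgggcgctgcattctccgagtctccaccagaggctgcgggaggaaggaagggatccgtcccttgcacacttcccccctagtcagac

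Cdh6: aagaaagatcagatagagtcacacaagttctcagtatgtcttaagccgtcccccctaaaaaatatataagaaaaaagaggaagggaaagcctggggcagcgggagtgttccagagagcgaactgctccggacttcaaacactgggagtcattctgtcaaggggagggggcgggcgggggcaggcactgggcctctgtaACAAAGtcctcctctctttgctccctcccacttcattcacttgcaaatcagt

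The Cdh22 window was 77.6% G or C with 30 CG pairs and held none of the 4 motifs. The Cdh6 window was 51.2% G or C with 6 CG pairs, close to the medians of all 32851 windows (52.4% and 6), and held ACAAAG once, which 16.5% of all windows hold. ACAATG occurs in 10.7% of all windows, CAGGTG in 17.2% and TATAAA in 12.4%. Of the 20 genes with a window in that table, 5 held ACAAAG (Cdh6, Cdh7, Cdh26, Pcdh8 and Pcdh18), 2 held CAGGTG (Cdh7 and Pcdh15), 2 held TATAAA (Pcdh8 and Pcdh15) and 0 held ACAATG. A match describes letters only.

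Cdh5, the gene of VE-cadherin at endothelial junctions, had the opposite signs to Cdh6 in both comparisons with R2. It had 6.17, 5.78 and 5.52 in R3, 9.18, 8.48 and 8.65 in R2, and 7.49, 7.996 and 6.69 in R1. The 3 gates did not overlap, with R2 highest and R3 lowest. Cdh5 was 7.70-fold lower in R3 against R2 (-2.94 on the log2 scale, standard error 0.32, adjusted p = 0.000736) and 2.96-fold lower in R3 than in R1 (-1.57, standard error 0.32, adjusted p = 0.00836), under every alternative. It was 2.60-fold higher in R2 than in R1 (adjusted p = 0.0215), a call lost without R2 replicate 2 or R1 replicate 2 (adjusted p from 0.0526 to 0.0771, and 4.52e-05 to 0.0771 over all alternatives). A second probe set, 1433956_at, varied less and was called in all 3 comparisons at -2.86, 1.83 and -1.03.

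Pcdh12, also named VE-cadherin-2 and known from endothelium, had 5.59, 5.15 and 5.30 in R3, 6.55, 6.19 and 6.59 in R2, and 6.53, 5.90 and 6.02 in R1. R3 lay below both other gates, near the guide, and R2 and R1 overlapped. It was 2.14-fold lower in R3 against R2 (-1.10 on the log2 scale, standard error 0.20, adjusted p = 0.0126) and 1.74-fold lower than in R1 (-0.80, standard error 0.20, adjusted p = 0.0208). The first call was lost without R3 replicate 4 or R2 replicate 2 (adjusted p from 0.0537 to 0.0558, and 0.00531 to 0.171 over all alternatives), and the second without R3 replicate 4, R3 replicate 5 or R1 replicate 2 (0.0577 to 0.077, and 0.00651 to 0.335). Its other 2 probe sets were dim and flat, so both calls were also lost with the mean of its probe sets.

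Endothelial markers followed the order seen for Cdh5 between R2 and the other gates. Of 16 measured, 15 were lower in R3 than in R2 and 14 were higher in R2 than in R1. Between R3 and R1, 7 were lower in R3 and 2 higher. In this order of comparisons, 93.8%, 87.5% and 56.2% of the list were called, beside 5.03%, 13.1% and 18.7% of all genes. Kdr, the main VEGF receptor, averaged 7.48 in R3, 9.46 in R2 and 7.08 in R1, and Emcn (endomucin) 4.63 in R3 and 8.49 in R2. The mean of the list ranged from 6.29 to 6.63 in R3, from 8.74 to 9.05 in R2 and from 7.08 to 7.25 in R1, with 11 to 13, 16 and 15 of the 16 above the guide. Of 11 pericyte and smooth muscle markers, 2 were lower in R3 than in R2 (18.2%). Against R1, 6 of them in R3 and 5 in R2 were lower, and 2 and 3 higher (72.7% called in each). The part of these cells in the changes of Cdh5 and Pcdh12 was not tested.

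**Figure D2:**
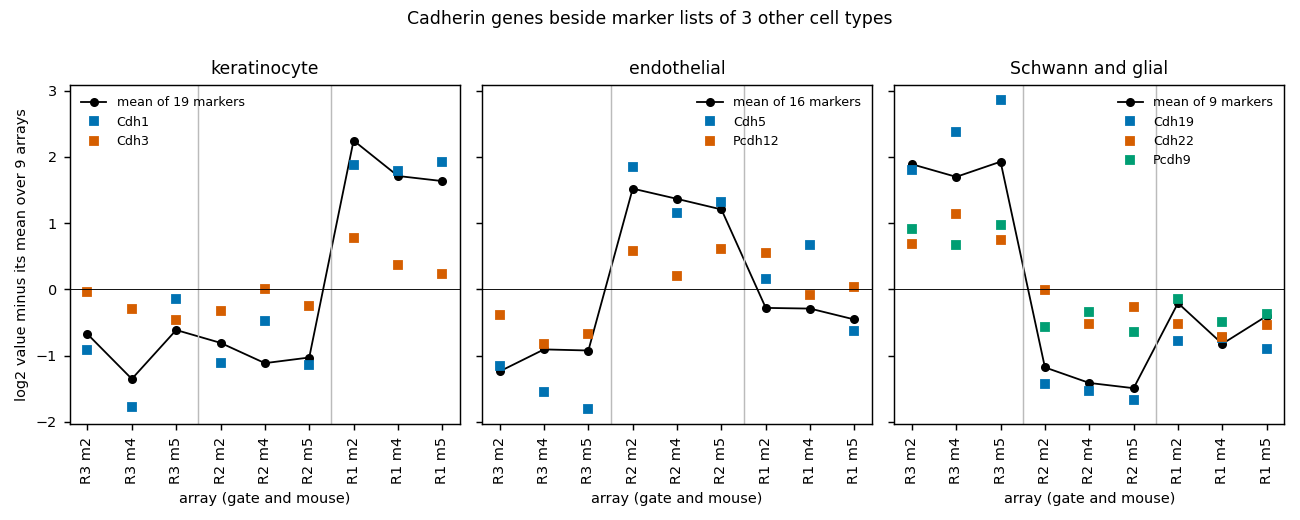
Log2 value minus its own mean over the 9 arrays, for the mean of each marker list (black line) and for single genes (squares), with arrays ordered R3, R2, R1 and mice (m) 2, 4 and 5 within each gate. Cdh1 and Cdh3 are highest in R1 with the 19 keratinocyte markers, Cdh5 is highest in R2 with the 16 endothelial markers, and Cdh19, Cdh22 and Pcdh9 are highest in R3 with the 9 glial markers.

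Cdh11, the cadherin of fibroblasts and bone-forming mesenchyme, was high in all gates. It had 11.22, 11.40 and 11.46 in R3, 11.28, 11.29 and 11.33 in R2, and 10.65, 11.08 and 11.17 in R1. Both papilla gates lay above all R1 arrays, but the changes were small (0.39 for R3 and 0.33 for R2 against R1) and not called (adjusted p = 0.111 and 0.205). With the mean of its 2 probe sets the R3 change was 0.53 and called (adjusted p = 0.0457, 0.0457 to 0.301 over all alternatives). Cdh7 was called lower in R3 and R2 than in R1 (changes -0.48 and -0.63, adjusted p = 0.0425 and 0.0180), yet its arrays lay between 2.85 and 3.75, under the guide throughout. With the mouse as a fixed block its R3 call was lost (adjusted p = 0.0704, 0.0342 to 0.409 over all alternatives), as it was without any array but R3 replicate 5 or R1 replicate 5. The R2 call was lost without R2 replicate 2, R2 replicate 4 or R1 replicate 2 (0.0566 to 0.0626, and 0.0132 to 0.0665 over all alternatives).

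The 5 remaining type II genes measured were Cdh8, Cdh9, Cdh10, Cdh18 and Cdh20. By the probe sets that stand for them, none was called or had a gate mean above 5.22. Another Cdh10 probe set, 1425092_at, averaged 5.83 in R3 and was called higher there than in R2 and R1, as given further below. With the mean of its probe sets, Cdh10 was also called higher in R3 than in R1 (adjusted p from 0.00311 to 0.903 over all alternatives). Cdh9 had 3.35, 4.54 and 3.34 in R3 and 4.23, 4.35 and 5.07 in R1, a change of -0.80 that was not called (adjusted p = 0.151). It passed without R3 replicate 4 (0.0238, and 0.0238 to 0.365 over all alternatives). Cdh20 had 5.41, 4.86 and 5.39 in R3 and 4.37, 4.82 and 4.75 in R1. Its change of 0.57 missed the threshold (adjusted p = 0.0546) and passed without R3 replicate 4 (0.0183) and with the mouse as a random block (0.0495), within 0.0183 to 0.165 over all alternatives. Some neighbouring genes had the same calls and others did not. Cdh3 and Cdh1 had the same calls in all 3 comparisons. Cdh6, Cdh9 and Cdh10 follow each other on chromosome 15 with 0 coding genes between them, as do Cdh8, Cdh11 and Cdh5 on chromosome 8 and Cdh7 and Cdh19 on chromosome 1, and in none of these 3 runs did all genes have the same calls.

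Of the 5 other cadherins, 2 were higher in R2 than in R1 and none was called in the comparisons with R3. Cdh13, or T-cadherin, which is anchored to the membrane by a lipid and binds adiponectin, had 8.39, 9.07 and 9.18 in R3, 9.66, 9.43 and 9.50 in R2, and 8.27, 8.86 and 8.35 in R1. R2 stood above both other gates, 2.04-fold above R1 (log2 change 1.03, standard error 0.23, adjusted p = 0.0166). The call was lost without R2 replicate 2, R1 replicate 2 or R1 replicate 5 (adjusted p from 0.0537 to 0.0605, and 0.00559 to 0.0605 over all alternatives). The R3 to R2 change of -0.65 was not called (adjusted p = 0.163). Its other probe sets were not called between R2 and R1. Their changes were 0.62 for 1423551_at (adjusted p = 0.0870), 1.08 for 1454015_a_at (0.0577) and 0.13 for the dim 1431824_at (0.755). On 1423551_at the R2 and R3 arrays overlapped. T-cadherin is known from endothelium too, and the endothelial markers described above were highest in R2. Their part in the changes of Cdh13 was not tested.

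Cdh26 had 5.86, 6.07 and 5.27 in R3, 6.34, 6.19 and 6.94 in R2, and 5.33, 5.86 and 5.24 in R1. R2 was highest without overlap, 2.02-fold above R1 (log2 change 1.01, standard error 0.27, adjusted p = 0.0355), against R1 values near the guide. With the mouse as a fixed block the adjusted p was 0.0604, and the call was also lost without R3 replicate 2, R2 replicate 2, R2 replicate 5, R1 replicate 2 or R1 replicate 5 (0.0505 to 0.106, and 0.0246 to 0.106 over all alternatives). Cdh16 of kidney, Cdh17 of intestine and Cdh23, a component of the tip links of sensory hair cells, were not called and stayed between 3.81 and 5.99.

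**Figure D3:**
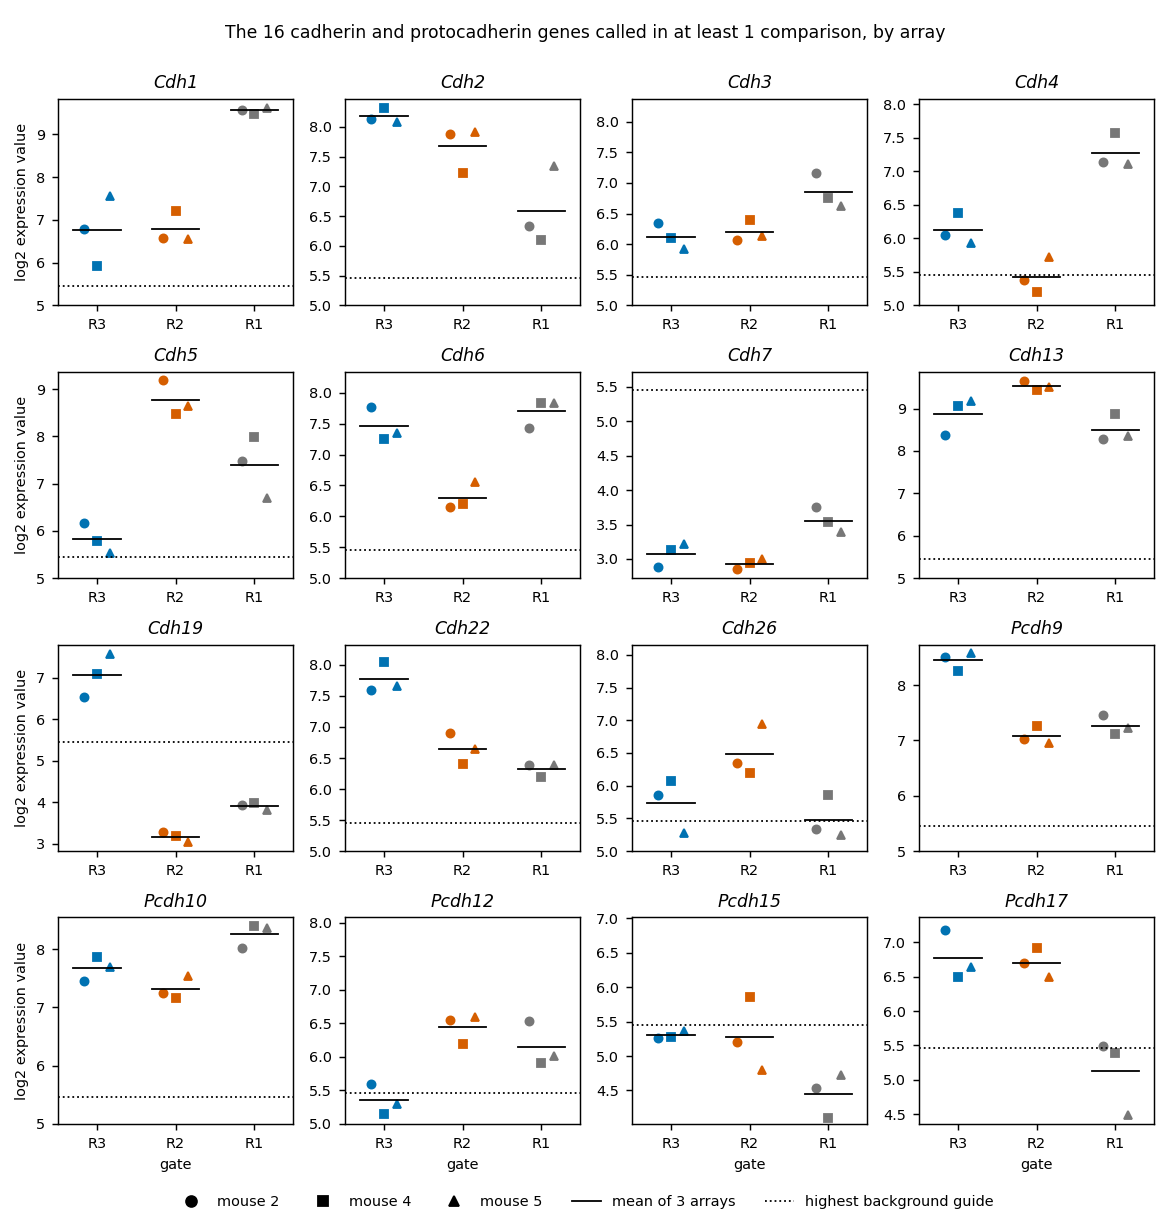
Log2 expression value of the 16 genes called in at least 1 comparison, on each of the 9 arrays; bars are the means of the 3 arrays of a gate, marker shapes are mice, and the dotted line is the highest background guide (5.46). Cdh19 crosses the line in R3 alone, Cdh7 lies under it on all arrays, and Cdh4 and Cdh6 are lowest in R2.

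Among delta protocadherins, Pcdh9 was higher in R3, Pcdh17 was higher in both papilla gates and Pcdh10 was lower in both. Pcdh9, known from the nervous system, had 8.50, 8.26 and 8.58 in R3, 7.03, 7.26 and 6.95 in R2, and 7.46, 7.11 and 7.23 in R1. R3 stood apart from both other gates, which overlapped. Pcdh9 was 2.58-fold higher in R3 against R2 (1.37 on the log2 scale, standard error 0.15, adjusted p = 0.000725) and 2.27-fold higher than in R1 (1.18, standard error 0.15, adjusted p = 0.000566), under every alternative. All 3 of its probe sets were called higher in R3 than in R2. Between R3 and R1, 1458269_at was not called (0.80, adjusted p = 0.119 among all probe sets). The glial and dermal papilla marker lists were both highest in R3, and their part in the changes of Pcdh9 was not tested.

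Pcdh17, known from the sorting of axons and synapses, had 7.17, 6.49 and 6.64 in R3, 6.70, 6.91 and 6.49 in R2, and 5.49, 5.39 and 4.49 in R1. The papilla gates overlapped each other and lay well above R1, whose values were near or under the guide. It was 3.13-fold higher in R3 than in R1 (log2 change 1.64, standard error 0.28, adjusted p = 0.00287) and 2.98-fold higher in R2 than in R1 (1.58, standard error 0.28, adjusted p = 0.00506). Between R3 and R2 the change was 0.07 (95% interval -0.55 to 0.69). The second probe set, 1453070_at, gave 1.68 and 2.11 against R1, with R1 mouse 5 at 6.03 and the other two R1 arrays at 4.28 and 4.20.

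The windows before these 2 genes are shown because Pcdh9 was highest in R3, while Pcdh17 was higher in both papilla gates than in R1. They lie at chr14:93890680-93890929 (minus strand) for Pcdh9 and chr14:84443313-84443562 (plus strand) for Pcdh17 in GRCm38.p6.

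Pcdh9: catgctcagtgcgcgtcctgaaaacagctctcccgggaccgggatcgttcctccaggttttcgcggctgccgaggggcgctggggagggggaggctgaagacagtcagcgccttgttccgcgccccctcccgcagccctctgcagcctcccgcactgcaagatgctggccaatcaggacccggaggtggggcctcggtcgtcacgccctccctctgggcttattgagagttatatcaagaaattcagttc

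Pcdh17: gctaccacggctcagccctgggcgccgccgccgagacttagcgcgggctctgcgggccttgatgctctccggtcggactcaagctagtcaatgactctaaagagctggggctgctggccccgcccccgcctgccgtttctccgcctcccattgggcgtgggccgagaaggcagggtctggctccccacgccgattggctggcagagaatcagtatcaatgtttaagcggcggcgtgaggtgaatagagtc

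Neither window held any of the 4 motifs. They were 63.6% and 64.8% G or C, with 18 and 21 CG pairs, above the median of all windows. Pcdh8, Pcdh17, Pcdh20 and Pcdh9 lie in this order on chromosome 14, with 1, 2 and 0 coding genes between them, and did not all have the same calls.

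Pcdh10 (OL-protocadherin, first described in the olfactory system) had 7.46, 7.86 and 7.70 in R3, 7.24, 7.16 and 7.54 in R2, and 8.02, 8.40 and 8.36 in R1. Every R1 array was above every papilla array. It was 1.93-fold lower in R2 than in R1 (log2 change -0.95, standard error 0.17, adjusted p = 0.00509) and 1.50-fold lower in R3 than in R1 (-0.59, standard error 0.17, adjusted p = 0.0360). The R3 call was lost without R3 replicate 2, R3 replicate 5, R2 replicate 2, R1 replicate 4 or R1 replicate 5 (adjusted p from 0.0503 to 0.116, and 0.0193 to 0.116 over all alternatives). A second bright probe set, 1421311_at, changed by -0.16 and -0.13 in R2 and R3 against R1 and was not called.

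The other 5 delta protocadherins were not called by the probe sets that stand for them. With the mean of a gene's probe sets, Pcdh19 was lower in R3 than in R1 (-0.66, adjusted p = 0.0332, and 0.0332 to 0.375 over all alternatives). Pcdh7 was then higher in R3 than in R2 (0.60, adjusted p = 0.0126, and 0.0126 to 0.602 over all alternatives) and than in R1 (0.47, adjusted p = 0.0160, and 0.0160 to 0.972 over all alternatives), where its brightest probe set gave -0.11. Pcdh18 stayed between 8.92 and 9.59 on all arrays, Pcdh7 between 8.003 and 8.71, and Pcdh19, the X-linked member, between 7.06 and 7.87. Pcdh8 (paraxial protocadherin) had 7.09, 6.35 and 8.07 in R3, the widest spread in that gate, and 8.09, 7.32 and 7.56 in R1. Its other probe set, 1417051_at, averaged 3.74 in R3, 3.64 in R2 and 3.61 in R1. That one reached at most 4.15, under the guide on every array, so the 2 probe sets differ on whether Pcdh8 exceeds it. Pcdh1 stayed between 5.32 and 6.11.

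Of the 3 other protocadherins, Pcdh12 is described above. Pcdh15, a tip link component with Cdh23, had 5.26, 5.28 and 5.37 in R3, 5.21, 5.85 and 4.79 in R2, and 4.53, 4.10 and 4.72 in R1. The levels were dim, with R1 below both other gates. Pcdh15 was 1.80-fold higher in R3 than in R1 (log2 change 0.85, standard error 0.25, adjusted p = 0.0447). With the mouse as a fixed block its adjusted p was 0.0794, and the call was lost without any R3 array, R2 replicate 2, R1 replicate 2 or R1 replicate 4 (0.0629 to 0.147, and 0.0133 to 0.147 over all alternatives). The R2 change of 0.83 was not called (adjusted p = 0.0626) but passed without R2 replicate 5 (0.0234, and 0.00313 to 0.182 over all alternatives). It also passed with median centring, quantile normalization again, the mean of the probe sets and each probe set singly. Pcdh20 had 7.06, 7.09 and 7.36 in R3, 6.73, 6.76 and 6.18 in R2, and 6.80, 6.40 and 6.76 in R1. R3 was highest on every array, yet its changes of 0.61 against R2 and 0.52 against R1 were not called (adjusted p = 0.112 and 0.0921). Some alternatives called the change against R1 (adjusted p from 0.0326 to 0.262 over all of them).

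Of 22 listed genes of catenins and other junction partners, 0 were higher and 3 lower in R3 than in R2 (13.6%, beside 5.03% of all genes). These were Ptprb, a phosphatase of endothelial junctions that is also in the endothelial list (2.21 lower on the log2 scale, 7.23 in R3 and 9.45 in R2, adjusted p = 0.000351), Ptprk (8.80 and 9.44, adjusted p = 0.0187) and Afdn, the gene of afadin (8.43 and 9.22, adjusted p = 0.0365). In R2 against R1, 7 were called (31.8%, beside 13.1% of all genes). Of these, 3 were higher, among them Ptprb at 5.56-fold and Ptprk at 1.82-fold. The other 4 were lower, among them the desmosomal plakophilin Pkp1 at 8.49-fold and the delta-catenin gene Ctnnd2 at 3.86-fold. In R3 against R1, 7 were called as well (31.8%, beside 18.7%). Of these, 2 were higher, 1 of them Vcl (vinculin) at 2.19-fold, and 5 lower, among them Pkp1 at 8.88-fold, Ctnnd2 at 4.23-fold and Pkp3 at 4.47-fold. Jup, the gene of plakoglobin (gamma-catenin), was lower in R3 than in R1 (7.86 and 8.89, adjusted p = 0.0259), and the alpha-catenin relative Ctnnal1 was higher (9.16 and 8.16, adjusted p = 0.00634). These 2 genes and 3 further catenins, not called in any comparison, were named after their values were seen. Ctnnb1 (beta-catenin) averaged 12.66 in R3, 12.88 in R2 and 12.72 in R1, Ctnna1 (alpha-catenin) 12.54, 12.42 and 12.27, and Ctnnd1 (p120-catenin) 10.09, 9.97 and 9.84.

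Of 9 listed transcription factors known to repress Cdh1, 4 were lower in R3 than in R2 and 0 higher (44.4% called, beside 5.03% of all genes). They were Snai1 (5.98 in R3 and 7.14 in R2, adjusted p = 0.0122), Tcf4 (10.62 and 11.47, adjusted p = 0.00567), Zeb1 (9.66 and 10.32, adjusted p = 0.0156) and Twist2 (9.07 and 9.95, adjusted p = 0.0181). In R2 against R1, Snai1 was 1.90-fold higher and Twist2 2.05-fold lower (22.2% of the list called, beside 13.1% of all genes). In R3 against R1, Twist2 was 3.77-fold and Tcf4 2.34-fold lower and 0 were higher (22.2%, beside 18.7%). Cdh1 was lower in both comparisons with R1 and was not called between R3 and R2. The part of these factors in the changes of Cdh1 was not tested. Twist2 is also a dermal fibroblast marker, and of the 13 genes of that list 4 were lower in R3 than in R2 (30.8%). Lower than in R1 were 8 in R3 and 6 in R2 (61.5% and 46.2%).

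**Figure D4:**
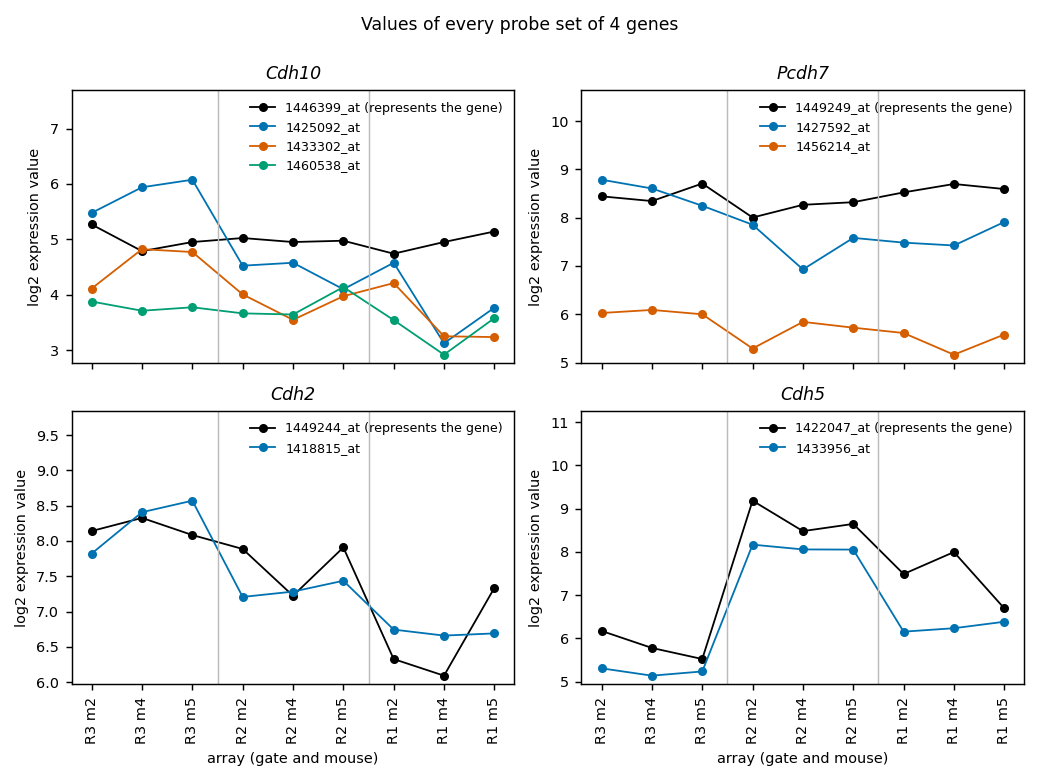
Log2 expression value of every probe set of Cdh10, Pcdh7, Cdh2 and Cdh5 on the 9 arrays, ordered R3, R2, R1 with mice (m) 2, 4 and 5 in each gate; the black line is the probe set that represents the gene. For Cdh10 and Pcdh7 a second probe set (1425092_at and 1427592_at) is higher in R3 while the black line is level, and for Cdh5 both lines have the same order of gates.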

How the data were processed

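Sorted-cell RNA was amplified with the WT-Ovation Pico system, biotin labelled and hybridised to 1-colour arrays, per the labels' protocols. The deposited files hold 1 log2 value for each probe set and array, made with RMA per the submitters' processing notes (background correction, quantile normalization and probe summary). Not given in the sources used here are the version and whether all arrays went through RMA jointly. RMA values carry no detection call, amplification can compress folds, and 3 arrays per gate limit the precision.

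Of 45101 probe sets, 34958 had 1 gene symbol in the platform annotation, 932 had several and 9211 none, and the 64 control probe sets were left out. By gene identifier, 34754 were found in the RefSeq table (GRCm38.p6), and 0 symbols changed. The brightest probe set stood for a gene, and 21 of the 32 genes had several. Gates were compared with limma 3.58.1 in R 4.3.3 (1 coefficient per gate over 9 arrays, no block, eBayes, 9.49 total degrees of freedom, Benjamini-Hochberg adjustment per comparison). The fit was checked on simulated data. Arrays with one number share a mouse, so the numbers pair them. Deviations from gate means correlated at 0.01 to 0.18 within a mouse and at -0.16 to 0.04 between mice.

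The genes, marker lists and partner lists were chosen with earlier results of these data known, and some genes are in more than 1 list. Every called gene was to be named with all array values, and of each other list up to 4 genes with the lowest p. Alternatives were each array left out in turn, a block for the mouse (fixed or random), the 6 arrays of a comparison alone, median centring, quantile normalization again, the mean of a gene's probe sets or each singly, genes above the median gene, a trend and robust variance, and a 2-fold minimum. Tables and plots used Python 3.11.15, pandas 2.3.3, numpy 2.4.6, scipy 1.17.1 and matplotlib 3.10.9.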

Additional observations from a re-analysis of the deposited data

Results flagged for a closer look

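Probe sets that do not represent their gene gave calls in 4 genes where the representing probe set gave none, each tested among all 34945 probe sets with 1 symbol. For Cdh10, a type II cadherin of the nervous system, 1425092_at had 5.48, 5.94 and 6.08 in R3, 4.52, 4.58 and 4.10 in R2, and 4.58, 3.12 and 3.76 in R1. It was higher in R3 by 1.43 than in R2 (log2, limma adjusted p = 0.0464) and by 2.01 than in R1 (adjusted p = 0.00311), from values under the background guide in both. A further Cdh10 probe set, 1433302_at, was higher in R3 than in R1 by 1.00 (adjusted p = 0.0464), with every array under the guide.

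For Pcdh7, 1427592_at had 8.79, 8.61 and 8.25 in R3, 7.85, 6.93 and 7.58 in R2, and 7.48, 7.42 and 7.91 in R1, all above the guide. It was higher in R3 by 1.09 than in R2 (adjusted p = 0.0465) and by 0.94 than in R1 (adjusted p = 0.0330). The brighter 1449249_at changed by 0.30 and -0.11 in the same comparisons. For Cdh2, 1418815_at had 7.82, 8.41 and 8.57 in R3 and 7.21, 7.28 and 7.44 in R2, a change of 0.96 (adjusted p = 0.0221). For Pcdh15, 1444317_at was higher in R2 than in R1 by 1.10 (adjusted p = 0.00654), with no array above 4.66. Which probe sets follow which transcripts was not tested.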

How the results depend on the processing

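Of the 30 calls, those of Cdh1, Cdh6, Cdh22 and Pcdh9, of Cdh5 in R3 against R2 and R1, and of Cdh2 in R3 against R1 held under all alternatives, and those of Cdh4, Cdh19 and Pcdh17 under all in which the gene was tested. Over the named genes, 666 of 777 alternative values kept direction and side of the threshold, 80 lost the call, 25 gained it and 6 changed sign. The signs that changed were of Cdh10 in R3 against R2 (-0.037 after quantile normalization again, -0.114 to 0.126 leaving out single arrays) and in R3 against R1 (-0.075 to 0.165 leaving out single arrays), none of them called, and of Pcdh7 in R3 against R1, which turned from -0.11 and was then called (0.47 with the mean of its probe sets, 0.94 with its best probe set singly). Leaving out each array gave 4 to 4 higher and 1 to 2 lower genes in R3 against R2, 1 to 5 and 4 to 7 in R2 against R1, and 5 to 6 and 4 to 6 in R3 against R1. With each probe set tested singly, 7 genes were higher in R3 than in R2. With the mean of the probe sets, 1 was lower in R3 than in R2 and 11 were higher in R3 than in R1. Among genes above the median gene, where fewer were tested, 1 was lower in R3 against R2, 3 higher and 3 lower in R2 against R1, and 3 higher and 3 lower in R3 against R1. With a 2-fold minimum, 3 were lower in each comparison with R1. With the mouse as a fixed replicate block, 4 and 2 genes were higher and lower in R3 against R2, 4 and 6 in R2 against R1, and 5 and 6 in R3 against R1; as a random block the counts were 4 and 2, 5 and 6, and 7 and 7. The blocks changed no call beyond those of Cdh7, Cdh20, Cdh26 and Pcdh15 given with their values. Centring arrays on their medians moved the median of all genes from -0.01 to 0.08 in R3 against R1. The causes of other changes were not tested. Signals near the guide limit Cdh4, Cdh7, Cdh19, Cdh26, Pcdh12, Pcdh15 and Pcdh17.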

Other observations

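Among 26 measured relatives outside the 32 genes (Fat, Dchs, Celsr, calsyntenin, Cdhr and some clustered protocadherin genes, Pcdh11x and Ret), 10 were higher in R3 and 7 in R2 than in R1, and 2 were lower in each. These are 46.2% and 34.6% of the list called, beside 18.7% and 13.1% of all genes. Clstn2, a calsyntenin of synapses, averaged 10.29 in R3, 10.19 in R2 and 6.45 in R1, and was 14.3-fold higher in R3 and 13.3-fold higher in R2 than in R1 (limma adjusted p = 3.09e-05 and 5.76e-05). Cdhr4 averaged 8.52 in R3, 8.06 in R2 and 6.10 in R1, with adjusted p = 1.29e-05 for R3 and 6.71e-05 for R2 against R1. Of the clustered Pcdhb genes, Pcdhb16, Pcdhb17, Pcdhb19, Pcdhb20 and Pcdhb21 were called higher in R3 than in R1 (log2 changes 0.87 to 1.73). All of these but Pcdhb16 were also called higher in R2 than in R1 (0.85 to 1.24). These genes are close copies, so their probe sets may share signal. Fat1, an atypical cadherin, averaged 11.87 in R3, 11.65 in R2 and 10.99 in R1, and was 1.83-fold higher in R3 than in R1 (adjusted p = 0.00294).

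Between R3 and R2, 1 of the 26 was called (3.85%, beside 5.03% of all genes). This was Pcdh11x, a delta protocadherin whose symbol falls outside the rule. The gene averaged 6.70 in R3, 5.76 in R2 and 5.29 in R1. It exceeded its R2 level 1.93-fold in R3 (adjusted p = 0.0106) and its R1 level 2.67-fold (adjusted p = 0.000403). The median of the 26 was 0.13 for R3 against R2, 0.08 for R2 against R1 and 0.23 for R3 against R1, where the medians of all genes were -0.01, -0.02 and -0.01.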
